A study of Mus musculus with 8 samples.

Results

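The interferon-stimulated genes are a set of 39 named mouse genes that type I or type II interferon is known to induce, together with the interferon regulatory factors. They were found in the deposited counts by exact match of the gene symbol, and 37 of the 39 were matched among 18540 genes. Mx1 and Mx2 were not analysed here. All 37 passed the filter on low counts, so none of them was lost before the test across 15147 genes.

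RNA from wound skin of 8 mouse samples was sequenced, 4 from the control group (numbered 1, 2, 3 and 5) and 4 from the Z1C2Z group (numbered 1, 2, 4 and 5), named below as control-1, Z1C2Z-1 and so on. Z1C2Z is a particle of zinc peroxide and cerium oxide held in the zeolitic framework ZIF-8, in the version with the higher ratio of cerium oxide, and it was injected around the wound at 100 μg/kg every 7 days. The control group received PBS, and skin was taken after 15 days. The study made 2 round wounds of 10 mm on the back of each mouse, in C57BL mice of 6 weeks and in diabetic db/db mice of 10 weeks, and neither the labels nor the methods name the strain of the sequenced skin or which samples shared a mouse. P-values therefore measure only the spread between these samples. The titles of the treated samples (shiyan) do not name the particle, and the name Z1C2Z comes from the study's own sample names, which carry the same numbers.

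Interferons are secreted proteins that warn cells of viruses, microbes and damage. Type I interferons bind the receptor chains IFNAR1 and IFNAR2, and the kinases JAK1 and TYK2 then pass the signal to a complex that holds STAT2 and IRF9 and binds the interferon-stimulated response element (ISRE) of antiviral genes. Interferon gamma, the type II interferon of T and NK cells, binds IFNGR1 and IFNGR2, and signalling through JAK1 and JAK2 then acts at the gamma-activated site (GAS). Antiviral effectors such as the IFIT and OAS proteins are known mainly as type I targets, whereas guanylate-binding proteins and immunity-related GTPases are strongly induced by interferon gamma. In injured skin, type I interferon is known to be made early by plasmacytoid dendritic cells.

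Both elements can be read as letters in the promoters of these genes. RefSeq promoter windows of 300 bases (250 before and 50 after the transcription start, mouse build GRCm38.p6) were matched by symbol for 31 of the 37 genes, and Rtp4, Usp18, Oas2, Dhx58, Zbp1 and Iigp1 were not matched. The ISRE core was searched on both strands as GAAA, any 2 bases and GAAA again, and the GAS as TTCNNNGAA, which reads the same on both strands. The windows of 6 genes that are described below by their values are shown so that these letters can be seen, with the matches in capitals, read along the strand of the gene.
Isg15, ISRE core (chr4:156200769-156201068, minus strand): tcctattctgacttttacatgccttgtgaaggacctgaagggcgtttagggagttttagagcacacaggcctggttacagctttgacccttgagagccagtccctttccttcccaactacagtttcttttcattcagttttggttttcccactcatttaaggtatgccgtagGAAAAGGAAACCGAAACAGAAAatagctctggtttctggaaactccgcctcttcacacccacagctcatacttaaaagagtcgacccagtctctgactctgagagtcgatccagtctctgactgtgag
Ifit1, ISRE core (chr19:34640639-34640938, plus strand): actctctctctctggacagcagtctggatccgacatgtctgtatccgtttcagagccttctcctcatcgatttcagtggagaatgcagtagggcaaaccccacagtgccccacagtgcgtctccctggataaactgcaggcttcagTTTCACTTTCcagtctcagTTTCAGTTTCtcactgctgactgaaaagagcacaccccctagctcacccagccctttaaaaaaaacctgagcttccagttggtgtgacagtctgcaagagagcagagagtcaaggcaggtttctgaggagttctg
Oas1a, ISRE core and GAS (chr5:120907476-120907775, minus strand): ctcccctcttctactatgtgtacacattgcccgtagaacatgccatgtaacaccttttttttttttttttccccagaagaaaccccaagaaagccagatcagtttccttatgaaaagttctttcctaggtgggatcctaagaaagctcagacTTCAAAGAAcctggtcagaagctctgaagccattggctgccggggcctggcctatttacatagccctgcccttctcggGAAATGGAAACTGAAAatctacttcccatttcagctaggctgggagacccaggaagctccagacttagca
Gbp2, ISRE core (chr3:142620413-142620712, plus strand): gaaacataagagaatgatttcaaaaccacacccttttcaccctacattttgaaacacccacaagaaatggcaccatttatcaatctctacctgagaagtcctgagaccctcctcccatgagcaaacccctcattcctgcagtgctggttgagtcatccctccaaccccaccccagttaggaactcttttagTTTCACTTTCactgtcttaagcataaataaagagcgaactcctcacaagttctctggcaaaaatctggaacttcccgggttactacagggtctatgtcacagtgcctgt
Gbp5, ISRE core and GAS (chr3:142496684-142496983, plus strand): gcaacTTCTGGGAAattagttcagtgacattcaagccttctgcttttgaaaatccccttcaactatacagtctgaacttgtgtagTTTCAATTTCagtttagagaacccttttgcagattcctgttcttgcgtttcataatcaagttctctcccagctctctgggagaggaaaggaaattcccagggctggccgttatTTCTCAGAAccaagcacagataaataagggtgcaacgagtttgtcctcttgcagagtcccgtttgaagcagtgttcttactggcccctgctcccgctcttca
Irf1, GAS (chr11:53769764-53770063, plus strand): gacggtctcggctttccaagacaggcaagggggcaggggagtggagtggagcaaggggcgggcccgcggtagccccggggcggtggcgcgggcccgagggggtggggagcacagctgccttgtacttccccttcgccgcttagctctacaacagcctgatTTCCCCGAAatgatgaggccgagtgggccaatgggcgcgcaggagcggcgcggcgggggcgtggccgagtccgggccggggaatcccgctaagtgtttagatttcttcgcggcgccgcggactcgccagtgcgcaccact

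The ISRE core was present in 17 of the 31 genes (54.8%), against 1079 of 27025 genes in the promoter table (3.99%). All 6 matched GTPases held it, as did 3 of 5 OAS genes and 5 of 11 antiviral effectors, against 1 of 7 interferon regulatory factors (Irf2). GAS letters were present in 11 of the 31 (35.5%), against 2582 of 27025 (9.55%), and 6 genes held both. Overlapping matches, such as those of Isg15 and Oas1a, were counted once per gene. The members are known interferon targets, so these shares describe the set and are not a result about the wounds.

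**Figure D1:**
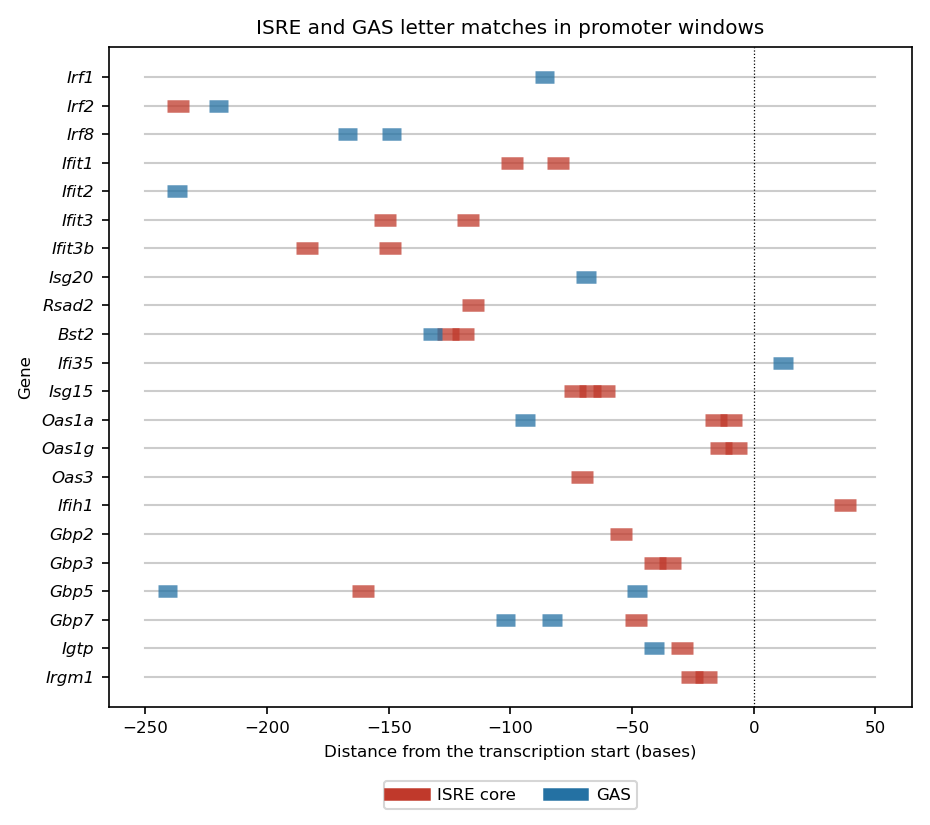
Position of ISRE core (red) and GAS (blue) letter matches in the first RefSeq promoter window of the 22 genes that hold either, in bases from the transcription start; grey lines span the 300-base window. The 6 GTPases at the bottom each hold an ISRE core, which lies between -59 and -15 in all of them but Gbp5.

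Across the 37 genes, 35 had a lower fitted level after Z1C2Z than in the controls and 2 (Irf3 and Ifi35) a higher one, where 7414 of the 15147 genes tested lay below 0. The median log2 fold change was -0.43, beside a median of 0.01 over all genes tested. None of the 37 passed an adjusted p of 0.05 (quasi-likelihood test of edgeR, Benjamini-Hochberg adjusted over all 15147 genes; lowest adjusted p 0.102), whereas 8.13% of all genes tested did (3.85% lower and 4.28% higher), and with an absolute log2 fold change over 1 as well it was 0 members against 3.4% of all genes. At an unadjusted p of 0.05 there were 3 members, Isg20, Oasl1 and Zbp1, all lower in Z1C2Z, beside 28% of all genes in either direction and 15.2% in the lower direction. DESeq2 called 2 of the members lower, Oasl1 (adjusted p 0.0274) and Zbp1 (0.0368), beside 2743 of 18398 genes in either direction. In none of the 37 were the 4 Z1C2Z values separate from the 4 control values, a pattern shown by 17.3% of all genes tested. The direction was thus nearly uniform over the members, with no call by the main test.

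The near uniformity of that direction rested on 1 sample. Control-3 had the highest level of all 8 samples in 32 of the 37 genes (86.5%), against 8.91% of all genes tested. Without control-3, 22 members lay below 0 and 15 above, and the median log2 fold change was -0.07. In 18 of the 37 (48.6%), control-3 exceeded 2 times the mean of the other controls, against 3.22% of all genes. Within the Z1C2Z group a sample stood out as well, since Z1C2Z-5 was the highest of the 4 in 30 members, against 24.4% of all genes. Without Z1C2Z-5, 3 members were called lower (Oas3, Oasl1 and Zbp1), beside 1745 of 15287 genes in either direction. The median of the members was then -0.60. At the other end, control-1 was the lowest control in 30 members (31.7% of all genes) and Z1C2Z-4 the lowest treated sample in 22 (26.1%).

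**Figure D2:**
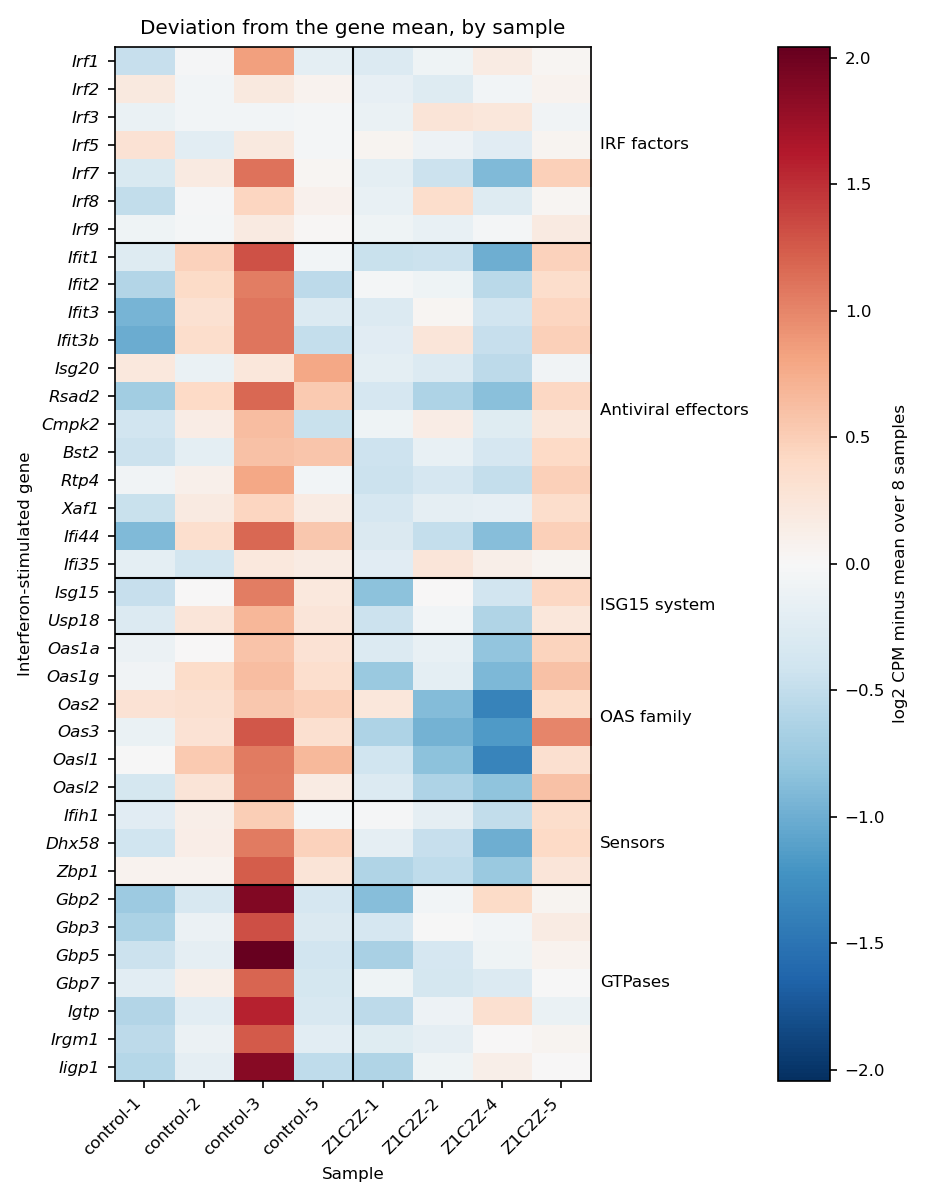
Heat map of the 37 genes (rows, by role) in the 8 samples (columns), as log2 CPM minus the gene's mean over the samples; red is above and blue below the mean. The column of control-3 is red for nearly every gene and darkest for the GTPases, while the columns of Z1C2Z-4 and Z1C2Z-5 differ in the OAS rows.

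Values per sample below are CPM, counts scaled to libraries of equal effective size, and are given for the 2 members of each role with the highest mean and for a few others chosen after their values were seen. The 4 values for a group always follow the order of the sample numbers, which is 1, 2, 3, 5 for the controls and 1, 2, 4, 5 for Z1C2Z. In bulk skin, fewer cells of a type and less RNA per cell cannot be told apart. The exact permutation tests are two-sided over the 70 arrangements of 4 samples against 4, and the smallest p they can give is 0.0286.

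The interferon regulatory factors, the transcription factors that switch these genes on or hold them back, had the smallest median difference of the roles. Their log2 fold changes ran from -0.54 to 0.16 with a median of -0.13. Irf9, a DNA-binding partner of STAT2, stood at 36.7, 37.6, 44.1 and 39.4 CPM in the controls and at 36.6, 35.0, 37.8 and 44.3 CPM in the Z1C2Z samples. The ranges coincided almost entirely (log2 fold change -0.04 ± 0.10 SE, exact permutation p = 0.686). Irf1, whose promoter with its GAS is shown above and which interferon gamma induces directly, was at 25.3, 34.5, 62.2 and 30.6 CPM in the controls and 28.9, 33.0, 39.4 and 35.8 CPM after Z1C2Z. Control-3 alone lay above every treated sample, and the log2 fold change of -0.15 ± 0.26 SE became 0.19 without it.

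Irf7, the factor that amplifies type I interferon production, had the largest difference of the family. It measured 16.6, 23.4, 44.6 and 21.2 CPM in the controls against 17.9, 15.2, 11.02 and 28.8 CPM in the Z1C2Z samples. Both groups held 1 high sample, control-3 and Z1C2Z-5, and the groups overlapped (log2 fold change -0.54 ± 0.36 SE, exact permutation p = 0.286). Irf3, the constitutive factor activated by viral sensing, had means of 31.0 ± 0.819 CPM (SD, n = 4) in the controls and 34.5 ± 4.85 in Z1C2Z. Irf2, which competes with Irf1, had means of 38.7 ± 3.19 and 33.5 ± 3.39 CPM, and Irf5 and Irf8, factors of myeloid cells, had 28.1 and 21.1 CPM in the controls against 25.7 and 20.7 CPM.

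Among the 12 antiviral effectors the median log2 fold change was -0.29, and 11 lay below 0. Ifit2, which belongs to the IFIT proteins that bind foreign RNA, had 18.1, 35.8, 56.4 and 18.9 CPM in the controls and 26.6, 25.7, 18.6 and 34.9 CPM in Z1C2Z. The controls alone spanned 3.12-fold and the treated samples 1.88-fold, and the log2 fold change was -0.29 ± 0.36 SE. Rtp4, a chaperone that restricts flaviviruses, had 23.0, 25.9, 42.0 and 23.3 CPM in the controls and 17.7, 19.1, 17.3 and 33.8 CPM in Z1C2Z. In each group 3 samples lay close together and 1 far above them, control-3 and Z1C2Z-5.

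Ifit1 showed the same arrangement with wider gaps. It was at 16.1, 26.9, 47.7 and 18.6 CPM in the controls and at 14.1, 14.2, 9.69 and 26.8 CPM in Z1C2Z (log2 fold change -0.76 ± 0.39 SE). The lowest treated sample was Z1C2Z-4, and Z1C2Z-5 reached the level of control-2. Rsad2 (viperin, an inhibitor of viral RNA synthesis) had means of 16.4 ± 7.82 CPM (SD, n = 4) in the controls and 9.64 ± 4.10 in Z1C2Z, and its neighbour and partner Cmpk2, a nucleotide kinase, had 9.23 ± 3.42 and 9.04 ± 1.38 CPM. Ifi44 had 10.3 ± 5.29 and 6.48 ± 2.79 CPM. Ifit3 and Ifit3b had control means of 22.7 and 5.20 CPM and Z1C2Z means of 19.1 and 4.70 CPM. These 2 copies share 31.7% and 27.4% of their 100-base transcript windows with each other, so how reads were split between them is uncertain.

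Isg20 (Entrez 57444), an exonuclease that degrades viral RNA, departed from the others, because control-3 was not its high sample. It had 7.28, 5.72, 7.35 and 10.9 CPM in the controls and 5.44, 5.18, 4.34 and 5.96 CPM in Z1C2Z. Only control-2 lay inside the treated range, and control-5 was the highest. The log2 fold change was -0.58 ± 0.21 SE, with an adjusted p of 0.111 and an exact permutation p of 0.0571, and it stayed between -0.70 and -0.37 when any 1 sample was left out. Bst2 (tetherin, which holds budding virus at the cell surface) had means of 23.9 ± 8.40 and 19.6 ± 5.53 CPM, Xaf1 (a pro-apoptotic factor) 15.6 ± 3.77 and 13.8 ± 3.17 CPM, and Ifi35 19.2 ± 3.75 and 20.4 ± 2.75 CPM in the control and Z1C2Z groups (SD, n = 4).

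Isg15, a ubiquitin-like modifier, and Usp18, the protease that removes it and restrains the type I receptor, are induced together. Isg15 had 5.61, 7.83, 16.0 and 9.01 CPM in the controls and 4.32, 7.82, 5.95 and 10.5 CPM in Z1C2Z. Its groups overlapped apart from control-3 (log2 fold change -0.43 ± 0.35 SE, exact permutation p = 0.400). Usp18 had 5.47, 7.85, 10.6 and 7.89 CPM in the controls and 4.85, 6.35, 4.32 and 7.76 CPM in Z1C2Z. The difference of -0.45 ± 0.24 SE on the log2 scale again lay within overlapping groups (exact permutation p = 0.143).

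The OAS family, enzymes that sense double-stranded RNA and activate RNase L, together with the OAS-like proteins, had the lower level in Z1C2Z in all 6 members, with a median log2 fold change of -0.60. Oasl2 had 30.8, 47.6, 82.1 and 44.5 CPM in the controls and 32.7, 25.6, 22.3 and 60.0 CPM in Z1C2Z. Oas2 had 19.4, 19.8, 23.4 and 22.1 CPM in the controls, the tightest control group of the family, against 18.6, 8.52, 6.15 and 20.5 CPM in Z1C2Z. The treated samples of Oas2 were 2 near the control level (Z1C2Z-1 and Z1C2Z-5) and 2 well under it, with a log2 fold change of -0.66 ± 0.35 SE and an exact permutation p of 0.0857.

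Oasl1 (Entrez 231655), which restrains translation of Irf7, had the largest difference of all 37 genes. It had 3.27, 4.75, 6.91 and 5.21 CPM in the controls and 2.45, 1.81, 1.26 and 4.13 CPM in Z1C2Z. Only Z1C2Z-5 exceeded the lowest control, and the log2 fold change was -1.06 ± 0.37 SE (adjusted p 0.102, exact permutation p = 0.0571). Oas3 had 4.55, 6.13, 12.1 and 6.22 CPM in the controls and 3.19, 2.51, 2.21 and 9.98 CPM in Z1C2Z. Z1C2Z-5 was the second highest of all 8 samples for Oas3, and the other treated samples were the lowest. Oas1a and Oas1g, copies that share 40.9% and 31.2% of their transcript windows, had control means of 16.0 and 4.46 CPM and Z1C2Z means of 12.6 and 3.07 CPM.

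In all 6 OAS genes control-3 was the highest of all 8 samples, Z1C2Z-4 the lowest of all 8 and Z1C2Z-5 the highest treated sample. Unlike the whole set, the family remained below 0 in all 6 members without control-3, with a median of -0.38. The 3 nucleic acid sensors (median -0.34) and the pair Isg15 and Usp18 (median -0.18) also stayed below 0 in that fit. When Z1C2Z-5 was left out instead, the log2 fold changes of Oasl1 and Oas3 were -1.46 and -1.46 with adjusted p of 0.0283 and 0.0342 (edgeR's quasi-likelihood test). Over the 13 alternatives the adjusted p of Oasl1 ran from 0.0274 to 0.316 and that of Oas3 from 0.0342 to 0.745.

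**Figure D3:**
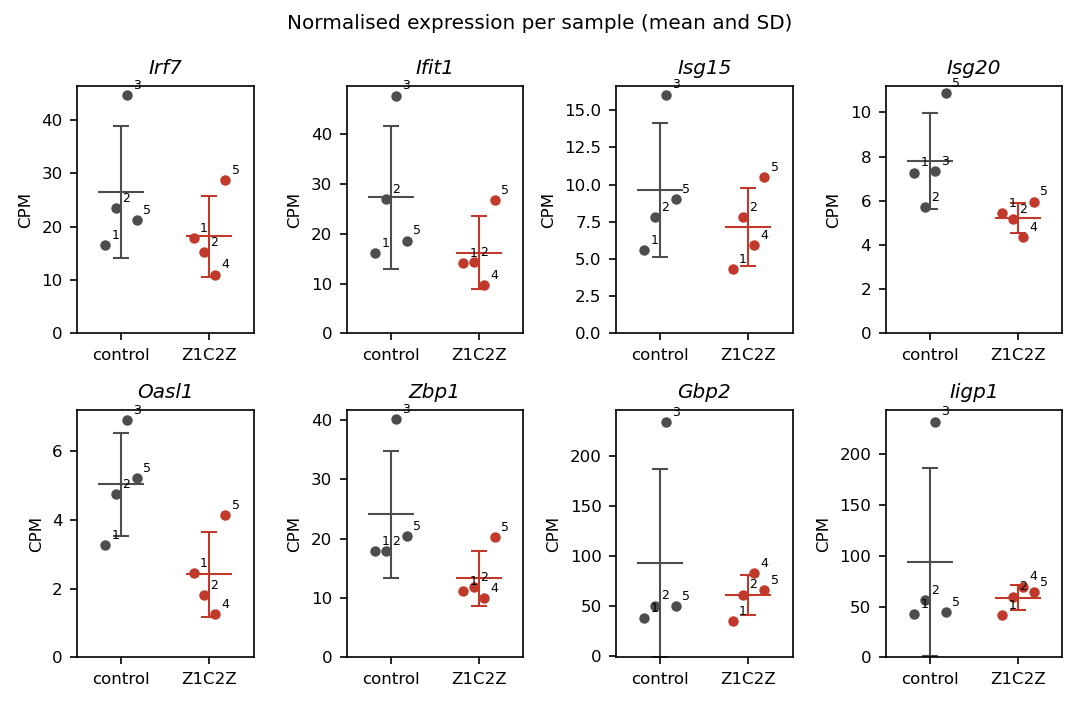
CPM of 8 interferon-stimulated genes in each sample; points are samples with their numbers, the wide bar is the group mean and the whiskers the SD (n = 4). Control-3 is the highest point in every panel but Isg20, and Z1C2Z-5 the highest treated point in every panel but Gbp2 and Iigp1.

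Of the nucleic acid sensors, Ifih1 (MDA5, a sensor of long double-stranded RNA) had 32.0, 40.9, 53.1 and 36.5 CPM in the controls and 36.7, 33.0, 26.6 and 47.9 CPM in Z1C2Z. Its log2 fold change was -0.17 ± 0.20 SE and the groups overlapped. Zbp1 (Entrez 58203), a sensor of Z-form nucleic acid that can start necroptosis, had 17.9, 17.9, 40.1 and 20.4 CPM in the controls and 11.1, 11.9, 10.02 and 20.2 CPM in Z1C2Z. Here Z1C2Z-1, Z1C2Z-2 and Z1C2Z-4 lay under every control and Z1C2Z-5 lay among them. The log2 fold change was -0.86 ± 0.32 SE, with an adjusted p of 0.117 and an exact permutation p of 0.0857. Without Z1C2Z-5 it was -1.13 (adjusted p 0.0457), without control-3 it was -0.49, and over the 13 alternatives the adjusted p ran from 0.0368 to 0.325. Dhx58 (LGP2, a regulator of MDA5) had means of 8.20 ± 3.51 CPM in the controls and 5.27 ± 2.19 in Z1C2Z (SD, n = 4).

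The interferon-inducible GTPases, which attack the membranes of intracellular microbes and their vacuoles, varied most between the controls. Gbp2 (Entrez 14469) had 38.1, 50.4, 234 and 49.996 CPM in the controls and 34.7, 61.3, 83.0 and 65.7 CPM in Z1C2Z. Iigp1 had 42.8, 56.1, 232 and 44.5 CPM in the controls and 41.5, 59.8, 69.7 and 64.1 CPM in Z1C2Z. For both, control-3 was far above any other sample, and 3 of the 4 treated samples lay above all other controls. The log2 fold changes of -0.61 ± 0.57 SE and -0.67 ± 0.53 SE therefore became 0.41 and 0.30 without control-3 (adjusted p 0.376 and 0.356). Over the 13 alternatives the adjusted p of Gbp2 ran from 0.317 to 0.695. That of Iigp1 ran from 0.267 to 0.663 without DESeq2, which gave no adjusted p for it.

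Gbp5 had 9.59, 11.5, 54.1 and 9.91 CPM in the controls and 8.26, 10.3, 12.3 and 13.7 CPM in Z1C2Z. In control-3 it was 5.23 times the mean of the other controls, the largest such ratio of the 37 genes. The remaining members of the group were Gbp3, Gbp7, Igtp and Irgm1, for which that ratio was 3.15, 2.50, 3.87 and 2.88. With control-3 all 7 GTPases lay below 0 (median log2 fold change -0.50), and without it 6 of 7 lay above 0, the exception being Gbp7 (median 0.29). The corresponding ratios were 1.14 to 2.14 in the OAS family, 0.92 to 2.59 in the antiviral effectors and 1.02 to 2.19 in the interferon regulatory factors. Z1C2Z-5, the highest treated sample for all 6 OAS genes, was the highest treated sample in 4 of the 7 GTPases, where its median deviation from the gene mean was 0.05 on the log2 scale against 0.53 in the OAS family.

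**Figure D4:**
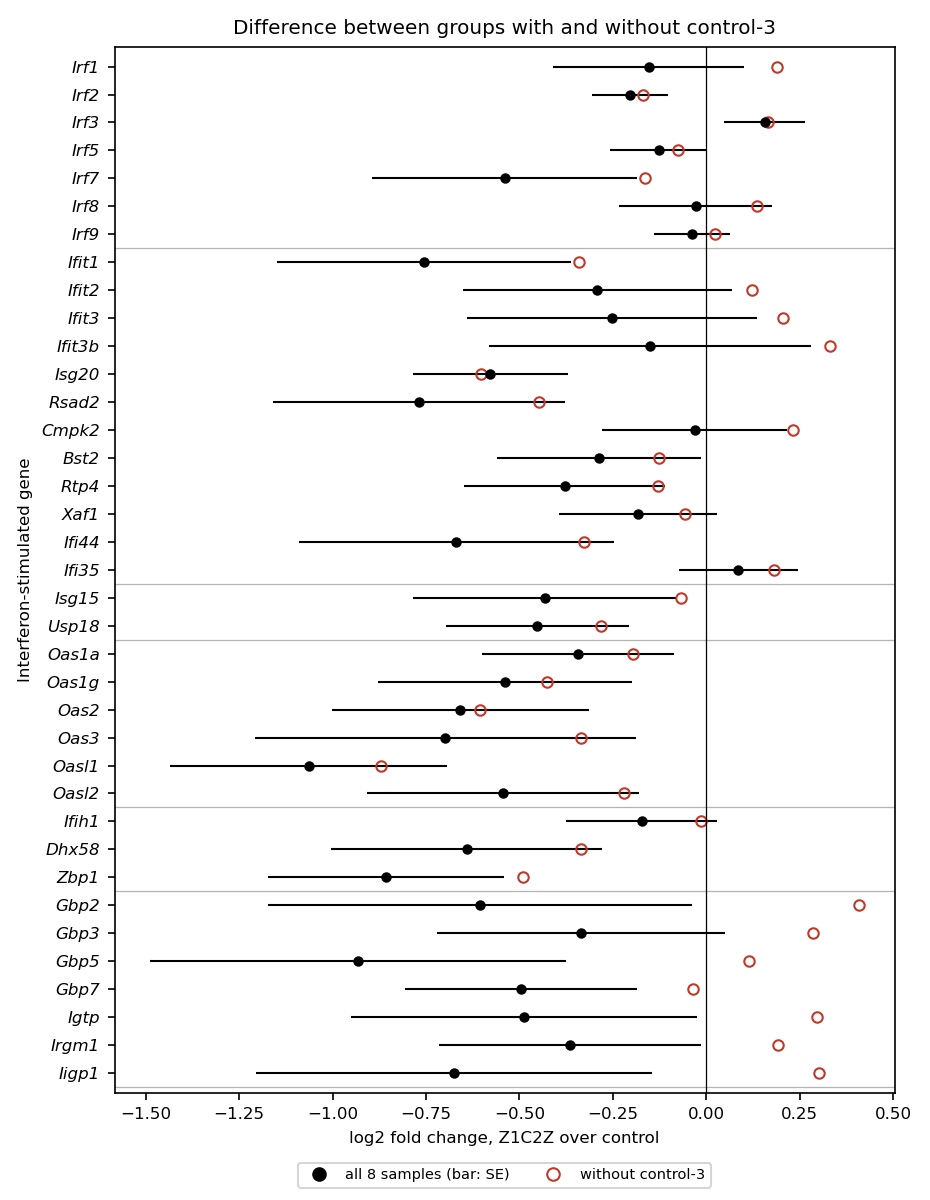
Log2 fold change of each gene, Z1C2Z over control, from all 8 samples (black, bar: SE) and without control-3 (red, open). Left of 0 the level was lower in Z1C2Z; the open points of the OAS family stay left of 0, and those of 6 of the 7 GTPases lie right of it.

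GTPases outside the 37 genes had the same high sample. Of 10 tested (Gbp4, Gbp6, Gbp8, Gbp9, Gbp10, Irgm2, Tgtp1, Tgtp2, Ifi47 and Gvin1), control-3 was the highest of 8 in all 10, at 2.16 to 11.3 times the mean of the other controls. All 10 log2 fold changes lay below 0 with every sample kept. Without control-3 all but those of Irgm2 and Gvin1 lay above 0. Cxcl9, a chemokine induced by interferon gamma that draws in T cells, had 10.9, 11.3, 124 and 9.38 CPM in the controls and 8.94, 22.5, 28.6 and 17.97 CPM in Z1C2Z. Stat2, a signalling factor of the type I response, ran from 37.5 to 56.9 CPM in the controls and from 31.8 to 44.1 CPM in Z1C2Z (log2 fold change -0.22 ± 0.16 SE).

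The interferons themselves were barely counted. Of 12 ligand genes looked for, 5 were matched and none passed the filter. Ifng had 7, 7, 22 and 4 counts in the controls and 9, 13, 13 and 7 counts in Z1C2Z, so that the highest count was again in control-3. Ifne, Ifnk, Ifnz and Ifnl3 had 0 or 1 count in every sample, so a difference in them was not detectable at this depth.

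Some receptors and signalling genes upstream of these targets passed the test. Of 74 tested pathway genes outside the set, 65 lay below 0, where 7414 of the 15147 genes tested did. Control-3 was the highest of 8 samples in 46 of the 74, beside 8.91% of all genes tested. By edgeR's quasi-likelihood test 9 of the 74 were called lower, beside 3.85% of all genes tested. None was called higher at the adjusted threshold. At an unadjusted p of 0.05 in that test 1 gene, Ifnlr1, was higher, and DESeq2 called 1 higher. Ifnar2, a chain of the type I receptor, had 64.7, 61.2, 65.3 and 88.6 CPM in the controls and 46.4, 40.3, 35.8 and 51.9 CPM in Z1C2Z. Every treated sample lay under every control, with a log2 fold change of -0.68 ± 0.15 SE (adjusted p 0.0360). Ifngr1, the ligand-binding chain for interferon gamma, had 169, 153, 162 and 191 CPM against 129, 117, 129 and 144 CPM. It fell by 0.38 ± 0.10 SE on the log2 scale (adjusted p 0.0499). Over the 13 alternatives its adjusted p ran from 0.00724 to 0.218, and it was called in 3. Jak2, a kinase that signals for the interferon gamma receptor, had 189, 159, 156 and 225 CPM against 99.8, 78.1, 77.4 and 126 CPM. Its level fell by 0.93 ± 0.18 SE on the log2 scale (adjusted p 0.0303).

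The partner chains did not pass the threshold. Ifnar1 had a log2 fold change of -0.41 ± 0.14 SE (adjusted p 0.104) and Ifngr2 one of -0.20 ± 0.10 SE (adjusted p 0.211). Il10rb, shared by the lambda interferon and IL10 receptors, had -0.30 ± 0.13 SE. Ifnlr1, the lambda interferon chain typical of epithelium, was the only receptor with a higher level, at 6.32, 5.49, 4.82 and 3.80 CPM in the controls and 7.61, 6.40, 8.01 and 8.23 CPM in Z1C2Z (log2 fold change 0.57 ± 0.18 SE, adjusted p 0.0795). Jak1, Tyk2 and the feedback inhibitor Socs1 had -0.50, -0.02 and -0.91, none of them called.

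Of 11 sensing genes, 2 were called lower, beside 3.85% of all genes tested. Sting1, the adaptor that relays cytosolic DNA sensing, had 49.7, 41.3, 42.5 and 52.4 CPM in the controls and 26.9, 20.8, 21.1 and 34.4 CPM in Z1C2Z (log2 fold change -0.85 ± 0.17 SE, adjusted p 0.0303). Myd88, the adaptor of Toll-like and IL1 receptors, fell by 0.43 ± 0.10 SE (adjusted p 0.0419). Among 40 other interferon-stimulated genes, 38 lay below 0, and control-3 was the highest of 8 samples in 30. In this list 4 were called lower, beside 3.85% of all genes tested. They were Ifi204, Ifi205 and Ifi211 of the PYHIN family of nuclear and DNA-binding proteins and Ifitm2, which blocks virus entry. Ifi205 had 455, 266, 261 and 447 CPM in the controls and 152, 113, 103 and 176 CPM in Z1C2Z, a log2 fold change of -1.39 ± 0.25 SE (adjusted p 0.0299). Ifi204, Ifi211 and Ifitm2 fell by 0.89, 1.21 and 0.59 on the log2 scale.

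In 13 of the 74 tested pathway genes every treated sample lay under every control, beside 8.82% of all genes tested. All 9 called genes were among the 13, but a call and a separation rest on the same values. Control-3 was not a high sample in any of the 9, its ratio to the other controls lying between 0.67 and 0.99. Of 11 antigen-processing genes (the immunoproteasome, peptide transporters and MHC class I and II regulators among them) none was called, and their median log2 fold change was -0.09. The number of pathway genes called lower depended on the samples kept. It was 0 when control-5 or any of the treated samples 1, 2 and 4 was left out, fits in which no gene of the table was called, and it was 6 without control-1, 2 without control-2, 5 without control-3 and 18 without Z1C2Z-5. DESeq2 called 16.

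**Figure D5:**
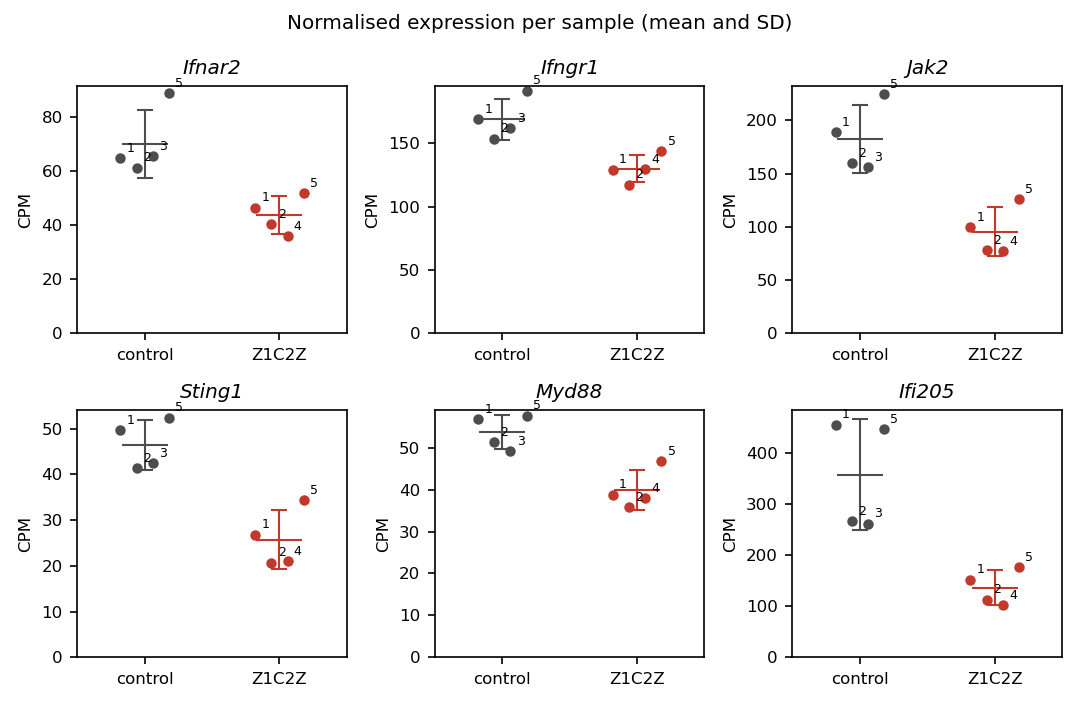
CPM of 6 pathway genes called lower in Z1C2Z, in each sample; points are samples with their numbers, the wide bar is the group mean and the whiskers the SD (n = 4). Every treated point lies under every control point, and control-3 lies within the other controls or at their lower edge.

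Total counts ranged from 28856790 to 38974888 per sample, and control-3 had 37097805. Keratinocyte and fibroblast markers were present in every sample, and markers of other cell types moved with the groups or samples. The summed level of 8 hair shaft genes was 564 to 3500 CPM in the controls and 4272 to 14877 in Z1C2Z (7 of 8 called higher), and that of 5 melanocyte genes 117 to 209 and 268 to 612 (5 of 5 called higher). Fibroblast markers summed to 54834 to 78015 CPM in the controls and 43054 to 60493 in Z1C2Z (2 of 6 called lower). Skeletal muscle markers summed to 3542 to 6620 CPM in the controls and 2989 to 3433 in Z1C2Z, without overlap (8 of 8 below 0, 3 called lower), and endothelial markers to 285 to 759 and 239 to 463 (5 of 5 below 0, none called). Macrophage and monocyte markers summed to 1062 to 1328 and 595 to 1160 (none of 7 called, lowest in Z1C2Z-4). Neutrophil markers summed to 578 to 1504 CPM, with control-3 highest, and 169 to 663, with Z1C2Z-4 lowest (none of 6 tested called; Ly6g, the defining marker, had 0 to 6 counts). Most of the sum in control-3 was S100a8 (525 CPM) and S100a9 (874 CPM). Csf3r and Cxcr2 were highest in control-2, Mmp8 in control-5 and Retnlg in Z1C2Z-5. Ly6c2, a marker of inflammatory monocytes that interferon can also induce, had 3.41, 4.25, 19.7 and 3.30 CPM in the controls and at most 6.74 CPM in Z1C2Z. Of the same list, Adgre1, Cd68 and Fcgr1 were also highest in control-3. Mrc1 was highest in control-1, Csf1r in control-5 and Ccr2 in Z1C2Z-5, and control-3 had the lowest sum of the controls. T and NK cell markers summed to 25.7 to 45.3 CPM, highest in control-3, and 26.1 to 42.3 in Z1C2Z (none of 7 called). Cd4 alone gave 22.8 CPM of the sum in control-3. Cd4 and Ncr1 were highest in that sample, Cd3e in control-1, and Cd3d, Cd3g, Cd8a and Nkg7 in Z1C2Z-2. Plasmacytoid dendritic cell markers, which include the member Bst2, summed to 239 to 260 and 201 to 236 CPM (none of 6 called). Most of this sum was Tcf4, at 206 to 226 CPM in the controls and 170 to 199 CPM in Z1C2Z. It was the only 1 of the 6 whose groups did not overlap. Siglech overlapped between the groups, at 1.21 to 6.00 CPM in the controls, highest in control-3, and 1.48 to 4.25 CPM in Z1C2Z. The part of these cell types in the levels above was not tested.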

How the data were processed

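RNA of 8 wound skin samples, 4 control and 4 Z1C2Z, was sequenced by the study after ribosomal RNA depletion, with dUTP in the second strand. The deposited table holds unnormalized read counts of 18540 genes. The aligner, counter, genome build and strand setting are not given in the sources used here, and the labels name Trizol where the methods name another extraction kit. Samples were grouped by title.

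Counts were tested in R 4.3.3 with edgeR 4.0.16 (limma 3.58.1): filterByExpr (15147 genes), TMM scaling, the quasi-likelihood test without covariates and Benjamini-Hochberg adjustment over all genes at 0.05. Standard errors were derived from the F statistic. The log2 CPM values used a prior count of 2. Alternatives were DESeq2 1.42.0, RLE size factors, no filter, a minimum of 10 counts in all samples, a replicate block, and each sample left out.

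All members were to be named, with values in every sample for those called, those without overlap and the 2 of highest mean CPM in each role, and of the pathway the called genes, ligands, receptors and Stat2; further genes were chosen after their values were seen, and 1 gene that the rule names is not reported here. Members and lists were chosen with earlier results of these data known. On simulated counts for 15147 genes in the control against Z1C2Z design, 182 of 200 altered genes (91%, log2 fold change 2) were called with the right sign, and 10 unchanged genes were called. The log2 fold changes of the members, -1.06 to 0.16, were smaller, and recovery at such sizes was not simulated. No 2 libraries agreed within sampling noise (smallest chi-square 21.7 per degree of freedom). Promoters came from RefSeq (GRCm38.p6) and transcripts from GENCODE M21, read with Python 3.11.15. A comparison of protein sequences was planned, and shared transcript windows of 100 bases were used in its place.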

Additional observations from a re-analysis of the deposited data

Results flagged for a closer look

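Samples far from the others of their group were looked for in 66 genes, the 37 members and 29 pathway genes named beside them, with Dixon's limit at the 95% level for groups of 4. Of 132 groups of 4, 22 (16.7%) held such a sample, and 18 of the 22 were control-3. Some of the 29 pathway genes were chosen after their values were seen, so this share cannot be set against a chance rate. Genes of 1 pathway also vary together, so the 132 groups are not independent.

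In control-3, the members were Gbp2 (234 CPM), Iigp1 (232), Irgm1 (114), Gbp3 (83.9), Igtp (65.0), Gbp5 (54.1), Rtp4 (42.0) and Zbp1 (40.1). Outside the members, control-3 stood apart for Cxcl9 (124 CPM), Ifi47 (68.1), Gbp4 (60.3), Tgtp2 (47.3), Gbp6 (36.1), Cxcl10 (26.3), Tgtp1 (21.8), Gbp8 (15.1), Gvin1 (8.04) and Gbp10 (5.95). Over all genes tested, control-3 was past this limit in 0.931%, against 8 of the 37 members (21.6%).

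In Z1C2Z-5, Rtp4 (33.8 CPM) and Oas3 (9.98 CPM) lay far above the other treated samples. Among the controls, Ifnar2 was highest in control-5 (88.6 CPM) and Ifnar1 lowest in control-1 (87.1 CPM). The sums of neutrophil markers (1504 CPM) and of T and NK cell markers (45.3 CPM), and Ly6c2 (19.7 CPM), were also highest in control-3. Within these lists other markers were highest elsewhere, such as Csf3r and Cxcr2 in control-2 and Cd3e in control-1. Macrophage and monocyte markers summed to 1062 CPM in control-3, the lowest of the controls. The part of these cell types in the levels of control-3 was not tested.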

How the results depend on the processing

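The count of 0 members called held with RLE size factors, without a low-count filter, with at least 10 counts in every sample and with the replicate block. DESeq2 called 2 members lower, 1 of them with a log2 fold change over 1, and called 16 pathway genes lower and 1 higher. Over the whole table it called 2743 of 18398 genes. Leaving out each sample in turn gave 0 to 3 members lower (0 to 3 with a log2 fold change over 1), 0 to 18 pathway genes lower and 0 to 2 higher. Over the whole table these fits called 0 to 1745 genes. The cause of these changes was not tested, apart from the smaller number of samples. Numbers 1, 2 and 5 occur in both groups, and the control and Z1C2Z samples with an equal number deviated with correlations of -0.10, -0.06 and 0.32. These values cannot decide whether an equal number means a shared mouse, because the pairs are few and their mice are not named. A fit with that number as a block compares within shared numbers alone, which leaves out control-3 and Z1C2Z-4. It called 4 pathway genes lower, beside 554 of 15147 genes in either direction, and put 20 members below 0 and 17 above.

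With the block, log2 fold changes changed sign for the members Irf1 0.12, Irf8 0.22, Irf9 0.021, Ifit2 0.32, Ifit3 0.37, Ifit3b 0.55, Cmpk2 0.33, Ifih1 0.094, Gbp2 0.18, Gbp3 0.29, Gbp5 0.034, Gbp7 0.0041, Igtp 0.12, Irgm1 0.16 and Iigp1 0.19, and for the pathway genes Tyk2 0.087, Gbp4 0.72, Gbp6 0.37, Gbp8 1.25, Gbp9 0.23, Tgtp1 0.45, Tgtp2 0.67, Ifi47 0.29, Cxcl9 0.56 and Cxcl10 0.0072.

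With 1 sample left out, the log2 fold change changed sign at least once for the members Irf1 -0.31 to 0.19, Irf8 -0.18 to 0.14, Irf9 -0.11 to 0.023, Ifit2 -0.49 to 0.12, Ifit3 -0.50 to 0.20, Ifit3b -0.41 to 0.33, Cmpk2 -0.17 to 0.23, Ifi35 -0.015 to 0.18, Gbp2 -0.87 to 0.41, Gbp3 -0.55 to 0.29, Gbp5 -1.18 to 0.11, Igtp -0.71 to 0.30, Irgm1 -0.56 to 0.19 and Iigp1 -0.92 to 0.30, and for the pathway genes Tyk2 -0.13 to 0.048, Gbp4 -0.79 to 0.78, Gbp6 -0.87 to 0.42, Gbp8 -0.53 to 1.36, Gbp9 -0.69 to 0.10, Gbp10 -2.10 to 0.067, Tgtp1 -1.53 to 0.62, Tgtp2 -0.92 to 0.77, Ifi47 -0.53 to 0.33, Cxcl9 -1.33 to 0.89 and Cxcl10 -0.91 to 0.23. Of the members' values under all alternatives, 441 kept their direction and side of the threshold, 5 passed the threshold and 35 changed sign. Of the values of the 29 pathway genes, 291 kept both, 58 lost the call, 4 passed the threshold and 23 changed sign. A gene to which DESeq2 gave no adjusted p was counted as not called there.

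Counts of 4 to 22 for Ifng, and of 0 or 1 for the other ligands, are too few for a comparison.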
